A study of Mus musculus with 2 samples.

Results

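The immediate early and stress response genes examined here are 10 genes of the mouse: Fos, Fosb, Jun, Junb, Jund, Egr1, Ier2, Atf3, Dusp1 and Arc. They were taken by gene symbol from a named list and were read from the gene and transcript tables of both libraries. All 10 had a row, out of 43346 Ensembl genes in the tables. The samples were hindbrain tissue of healthy B6NCrl mouse embryos, males and females pooled, at embryonic day 13.5. There were 2 total RNA-seq libraries, numbered biological replicates 1 and 2, and each was prepared from 10 ng of RNA longer than 200 nt with ERCC spike-ins (synthetic RNAs of known amount) added. Both came from 1 donor label but had separate biosample labels, so part of their spread may be technical. No treatment, mutant or second tissue was included, so there was 1 group and no contrast between conditions.

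Immediate early genes are transcribed within minutes of a growth factor, neuronal activity or a stress, without the need for new protein. Kinase cascades act on factors such as SRF, its ternary complex partners and CREB that already sit at their promoters. Several encode subunits of AP-1, a dimer of basic leucine zipper (bZIP) proteins in which a Jun protein pairs with a Fos protein, another Jun or an ATF protein. Many of their mRNAs are short-lived, in part through AU-rich elements in the 3′ UTR. In the developing brain Jun and its relatives are active in progenitors and differentiating neurons, while Arc and Egr1 are widely used as markers of neuronal activity in the mature brain.

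Levels are given as TPM, a relative abundance that is corrected for length and can therefore be compared between genes. The authors deposited an interval with each TPM, and its level is not stated. The detection limit was set at 1 TPM, to be reached in each library. By that limit 9 of the 10 genes were detected, against 15342 of all 43346 Ensembl genes (35.4%). The latter include antisense genes, small RNA genes and pseudogenes, while all 10 genes here have a coding transcript, so the shares are not of like genes. Fosb was the gene that was not detected.

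The start regions of these genes are shown first, because letters of the CRE, the element that CREB and ATF proteins bind, recur in them. RefSeq promoter entries on GRCm38.p6, the build of the tables, were found for 7 of the 10 genes: Fos, Fosb, Jun, Junb, Jund, Atf3 and Dusp1. In the 250 bases before the start of the entry, the CRE core TGACG was present on either strand in 5 of these 7, namely Fos, Fosb, Junb, Atf3 and Dusp1. It was present in 5836 of all 32851 promoters of the same length (17.8%). The 3 stretches below were chosen because they hold the core and overlap no annotated exon. They are 150 bases long, run 5′ to 3′ on the gene's own strand and have TGACG on either strand in capitals. Fos lies on the plus strand, chr12:85473740-85473889. Junb lies on the minus strand, chr8:84978749-84978898. Dusp1 lies on the minus strand, chr17:26508520-26508669, and its stretch stops 47 bases before the RefSeq start.
Fos: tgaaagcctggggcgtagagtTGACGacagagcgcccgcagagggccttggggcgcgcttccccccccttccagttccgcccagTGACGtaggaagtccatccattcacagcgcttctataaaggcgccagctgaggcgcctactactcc
Junb: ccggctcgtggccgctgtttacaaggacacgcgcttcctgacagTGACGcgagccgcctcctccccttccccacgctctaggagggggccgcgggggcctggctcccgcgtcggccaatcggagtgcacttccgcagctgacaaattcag
Dusp1: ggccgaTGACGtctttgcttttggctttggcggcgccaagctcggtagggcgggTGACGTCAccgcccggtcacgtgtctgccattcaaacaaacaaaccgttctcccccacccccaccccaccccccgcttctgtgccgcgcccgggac

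In Fos the core occurred at 129 to 125 and again at 66 to 62 bases before the start, followed by a TATA box (TATAAA) at 33 to 28. In Junb it occurred at 106 to 102, and a CCAAT box stood at 36 to 32. Dusp1 had the core at 191 to 187 and, at 143 to 136, the palindrome TGACGTCA, in which the core is read from both strands. Dusp1 was the one gene of the 7 with that full element, which 1.55% of all promoters held. In Atf3 the core was on the opposite strand, at 7 to 3. The Fosb entry runs from a start 73 bases inside the RefSeq span of Fosb, so its core, at 60 to 56 before that start, lies within the span and not before it. The other 6 entries use the start of the RefSeq span. In GENCODE M21 the spans of Atf3 and Dusp1 begin farther upstream, at 191218039 and 26562128. That of Jund begins farther downstream, at 70698949. Windows before those starts were not searched. The GC box GGGCGG was found in 5 of the 7 promoters (32.7% of all), CCAAT in 2 (33.8%), TATAAA in 1 (12.4%) and the Egr motif GCGNGGGCG in 1, Fosb (4.70%), there too within the RefSeq span. The AP-1 motif TGANTCA (6.75% of all) and the CArG box of SRF (1.47%) were in none of these 7 windows. Bases farther than 250 before the start were not searched, nor were Egr1, Ier2 and Arc. Absence from these windows therefore does not show that a gene lacks such sites. Each motif was searched on both strands, and a match describes the letters only.

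The 10 genes fell into a high and a low set. Jun, Jund, Dusp1 and Ier2 each had over 20 TPM in both libraries, while the other 6 were under 5 TPM. The 4 highest carried 92.5% and 91.9% of the genes' summed TPM, which was 136.48 in replicate 1 and 148.66 in replicate 2. The median of the 10 was 3.425 TPM, against 16.1 TPM over all detected genes. Jun, the most abundant, stood 41.3-fold above Atf3, the lowest detected gene.

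**Figure D1:**
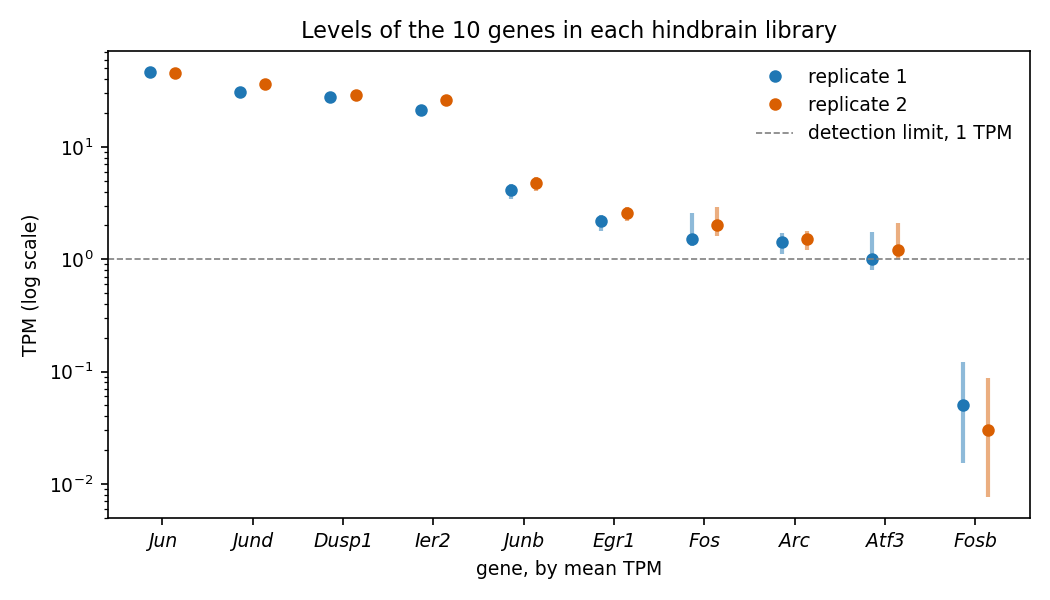
TPM (log axis) of each gene in replicate 1 and replicate 2, ordered by the mean, with the deposited interval as a vertical line and the detection limit of 1 TPM dashed. Jun, Jund, Dusp1 and Ier2 lie between 21.26 and 46.2 TPM, 5 genes lie between 1 and 4.78 TPM, and Fosb lies at 0.05 and 0.03 TPM.

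Among the Jun proteins, Jun itself, the founding AP-1 subunit, was read at 46.2 TPM in replicate 1 and 45.12 TPM in replicate 2, from 2948 and 3401 estimated counts. The mean was 45.7 ± 0.764 TPM (SD, n = 2), and 75.3% of detected genes lay below it. The deposited intervals, 43.3 to 46.5 and 42.6 to 45.6 TPM, overlapped. Jun is a single-exon gene on the minus strand, chr4:95049034-95052222 in GENCODE M21 on GRCm38. The antisense gene Junos overlaps its exon and was low, at 1.21 and 1.44 TPM.

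Jund, a Jun protein that is expressed more constitutively than its relatives and often restrains growth, was read at 30.59 and 36.39 TPM, from 1756 and 2467 estimated counts. The mean was 33.5 ± 4.10 TPM (SD, n = 2). The intervals, 28.2 to 31.3 and 34.1 to 37.1 TPM, did not overlap, with replicate 2 the higher. The level of Jund depends on its gene model. The tables used a single-exon model of 2878 bases, equal to the RefSeq span chr8:70697739-70700616, while GENCODE M21 gives 1668 bases, chr8:70698949-70700616. With the counts assigned to it divided by the shorter length, Jund would reach up to 54.2 and 64.5 TPM. This upper bound for the assigned counts would place it above Jun. An antisense gene, Gm11175, lies within the exon of Jund (chr8:70699162-70700080) and was read at 51.05 and 56.93 TPM. It held 21.05% and 20.0% of the counts of the pair, and no strand setting is given in the sources used here. Its counts enter neither the reported level of Jund nor the upper bound. Both would be higher if those reads came from Jund, which was not settled.

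Junb, a Jun protein that is strongly inducible and can antagonise Jun, was far lower, at 4.17 and 4.78 TPM from 150 and 203 counts. The mean was 4.475 ± 0.431 TPM (SD, n = 2), so that Ier2, the next gene up, exceeded it 5.30-fold. Its intervals were 3.41 to 4.72 and 4.06 to 5.35 TPM and overlapped. Junb lies on the minus strand, and its annotated span is chr8:84974484-84978718. Its main transcript has a single exon, given by RefSeq as chr8:84976909-84978748. Prdx2, at 1124 and 1099 TPM, overlaps that span outside the exon of Junb that was quantified.

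Fos, the inducible AP-1 partner of Jun, was read at 1.5 and 2.01 TPM, from 59 and 81 counts. The mean was 1.755 ± 0.361 TPM (SD, n = 2), and 6.73% of detected genes lay below it. The intervals, 1.31 to 2.58 and 1.63 to 2.92 TPM, overlapped widely. Fosb, its close relative, was read at 0.05 and 0.03 TPM from 4 and 3 counts. In these libraries 3 counts correspond to 0.0375 and 0.0300 TPM of Fosb, so its level was at the limit of counting, and no difference between libraries could be resolved. Fos lies on the plus strand at chr12:85473890-85477273, and Fosb on the minus strand at chr7:19302696-19310051, each with 4 exons in its main transcript.

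Summed by family, Jun, Junb and Jund came to 80.96 and 86.29 TPM, a mean of 83.6 ± 3.77 TPM (SD, n = 2). Fos, Fosb and their relatives Fosl1 and Fosl2 came to 2.73 and 3.21 TPM, a mean of 2.97 ± 0.339 TPM. Jun family transcripts therefore exceeded Fos family transcripts 29.7-fold in replicate 1 and 26.9-fold in replicate 2 (28.3 ± 1.96, SD, n = 2). Jun made up 57.1% and 52.3% of the Jun family, Jund 37.8% and 42.2%, and Junb 5.15% and 5.54%. This order rests on the longer Jund model. At the upper bound for the shorter one, Jund would make up 51.8% and 56.4% and Jun 44.2% and 39.5%. The ratio of the families would then be 38.3-fold and 35.6-fold. The counts of Gm11175 are left out of both readings, so these shares and ratios hold for the counts assigned to Jund alone. Fos made up 54.9% and 62.6% of the Fos family and Fosl1 30.8% and 27.7%. In bulk tissue, few cells with a high level and many cells with a low level of Fos cannot be told apart, nor can fewer cells of a type and less RNA per cell.

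Atf3, a bZIP factor that is induced by many stresses, stood at the detection limit with 1.00 and 1.21 TPM, from 39 and 54 counts (1.105 ± 0.148 TPM, SD, n = 2). Only 0.339% of detected genes lay below it. Its intervals, 0.798 to 1.75 and 0.996 to 2.11 TPM, overlapped and extended under the limit in both libraries. Atf3 lies on the minus strand at chr1:191170296-191218039. The small RNA gene Gm24748 lies inside that span, outside the quantified exons, and had 0 counts.

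Egr1, a zinc finger factor induced through SRF and read widely as a marker of activity, was at 2.17 and 2.58 TPM from 137 and 193 counts. Its mean was 2.375 ± 0.290 TPM (SD, n = 2), and the intervals of 1.78 to 2.49 and 2.19 to 2.91 TPM overlapped. Egr1 lies on the plus strand at chr18:34859823-34864984. Ier2, a small nuclear protein induced with the same speed, was at 21.26 and 26.16 TPM from 625 and 908 counts. Its mean was 23.7 ± 3.46 TPM (SD, n = 2). The intervals, 19.1 to 22.3 and 23.9 to 27.3 TPM, did not overlap, and replicate 2 was again the higher. Ier2 is a single-exon gene on the minus strand, chr8:84661331-84662852, and no other annotated gene overlaps it.

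Dusp1, the phosphatase that switches off MAP kinases and so ends the response that induces it, was at 28.13 and 28.88 TPM from 1043 and 1258 counts. The mean was 28.5 ± 0.530 TPM (SD, n = 2), and the intervals, 25.7 to 29.3 and 26.6 to 30.0 TPM, overlapped. Dusp1 lies on the minus strand at chr17:26505590-26562128, a span that reaches Ergic1 (65.1 and 61.81 TPM) and the pseudogene Gm8225 (0.16 and 0.32 TPM) without exonic overlap in the quantified transcripts. The genes AC122252.1 and AC122252.4 of the newer annotation, in the same span, had no row in the tables. Arc, which encodes a synaptic protein whose mRNA travels to dendrites, was at 1.41 and 1.5 TPM from 86 and 108 counts (1.455 ± 0.0636 TPM, SD, n = 2). Its intervals, 1.12 to 1.71 and 1.22 to 1.77 TPM, overlapped. Arc lies on the minus strand at chr15:74669083-74672570.

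In the order of means, Jun, Jund, Dusp1, Ier2, Junb, Egr1, Fos, Arc, Atf3 and Fosb, most neighbours kept apart in both libraries. Fos and Arc were the one neighbouring pair whose library values overlapped. The deposited intervals were less able to separate neighbours. Egr1 and Fos, Fos and Arc, and Arc and Atf3 overlapped by interval in both libraries. Jund and Dusp1 overlapped in replicate 1 alone, and Dusp1 and Ier2 in replicate 2 alone. The wide gaps, 5.30-fold between Ier2 and Junb and 27.6-fold between Atf3 and Fosb, held under either reading.

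The libraries were then compared with each other for every gene. A two-sided exact binomial test took the rounded estimated counts against TMM-scaled library sizes, with Benjamini-Hochberg adjustment over the 19687 genes with 10 or more counts. It compares these 2 libraries against counting error alone and not conditions. A gene was called at an adjusted p below 0.05. Of all genes tested 12.6% were called, 7.07% higher and 5.49% lower in replicate 2. Of the 9 genes here that could be tested, 2 were called, Jund and Ier2, both higher in replicate 2. These were also the 2 genes with intervals that did not overlap, a property of 9.27% of the 15878 genes whose mean reached 1 TPM (4.45% higher and 4.82% lower in replicate 2). None of the 10 was called, apart by interval and also different by 1.5-fold or more in TPM + 1, criteria that 1.07% of all tested genes met together.

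Jund differed by a scaled count ratio of 1.21, which is 0.27 on the log2 scale (95% exact interval 0.18 to 0.36), with an adjusted p of 9.4e-08 by the exact binomial test. With the counts of Gm11175 added, the ratio was 1.19 (log2 0.25, interval 0.17 to 0.33). Ier2 differed by a ratio of 1.25, log2 0.32 (interval 0.17 to 0.47), with an adjusted p of 0.00048 by the exact binomial test. When a spread shared by all genes was added, as a negative binomial model with a common biological coefficient of variation of 6.30%, neither was called. That spread was estimated from these same 2 libraries taken as 1 group, so the differences under test enter it. It is therefore no independent measure of biological spread. The adjusted p-values of that edgeR exact test were 0.670 for Jund and 0.551 for Ier2, with 0.0477 and 0.0330 before adjustment. It called 1.94% of all genes.

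Jun and Dusp1 were close between the libraries. Their log2 count ratios were −0.01 (interval −0.09 to 0.06) for Jun and 0.05 (−0.07 to 0.17) for Dusp1, with adjusted p-values of 0.888 and 0.675 by the exact binomial test. For Junb the interval was −0.09 to 0.53, for Egr1 −0.05 to 0.60, for Fos −0.26 to 0.75, for Arc −0.31 to 0.53 and for Atf3 −0.37 to 0.88. Their adjusted p-values by the same exact test ran from 0.311 for Egr1 to 0.827 for Arc. A difference as large as that of Jund lies inside each of those 5 intervals, so it was not detectable at this depth for these genes.

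**Figure D2:**
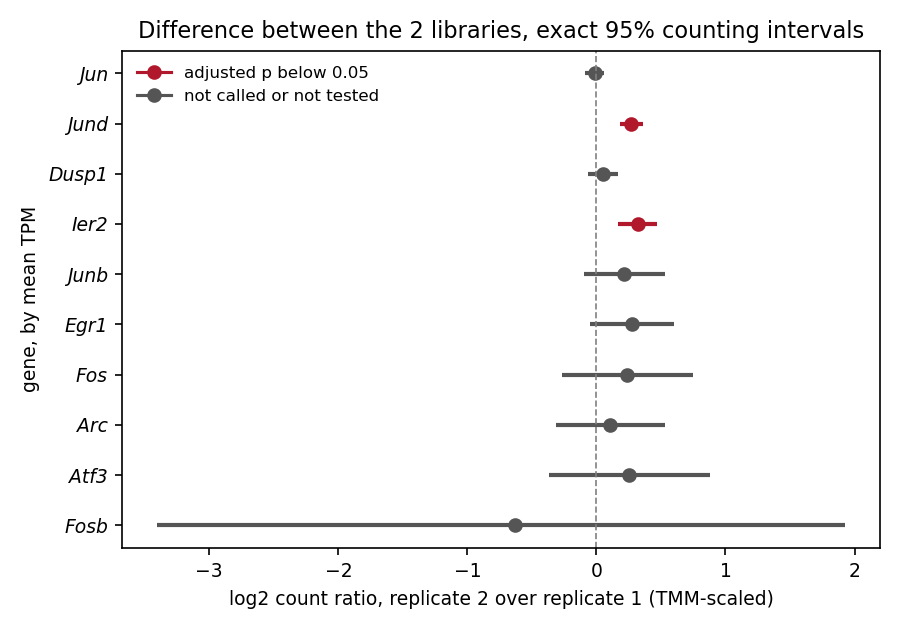
Log2 ratio of TMM-scaled counts, replicate 2 over replicate 1, for each gene (points) with the exact 95% counting interval (lines). Red marks Jund and Ier2, whose adjusted p is below 0.05 and whose intervals lie above 0, and the interval of Fosb, which was not tested, runs from −3.41 to 1.93.

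As a set, 8 of the 9 genes whose mean reached 1 TPM had the higher TPM in replicate 2, Jun being the exception, while 45.4% of the 15878 genes at that level did. The median difference of the 9 was 0.16 on the log2(TPM + 1) scale, against −0.01 over all 15878 genes. This is a description of 2 libraries, without a test. Scaled by the ERCC spike-ins the count was 6 of 9, since Dusp1 (−0.08) and Arc (−0.02) turned lower, and the medians became 0.08 for the 9 genes and −0.13 for all genes.

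Differences of this size were common at the level of most of these genes. Among the 4378 genes of 1 to 5 TPM the median absolute difference was 0.169 on the log2(TPM + 1) scale, and the differences of Fos (0.27), Egr1 (0.18), Junb (0.16), Atf3 (0.14) and Arc (0.05) were matched or passed by 31.5% to 83.3% of them. Among the 5112 genes of 20 to 100 TPM the median was 0.0647. Only 3.11% of those had a difference as large as that of Ier2 (0.29) and 5.09% one as large as that of Jund (0.24). For Dusp1 (0.04) and Jun (−0.03) these shares were 69.3% and 72.4%.

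**Figure D3:**
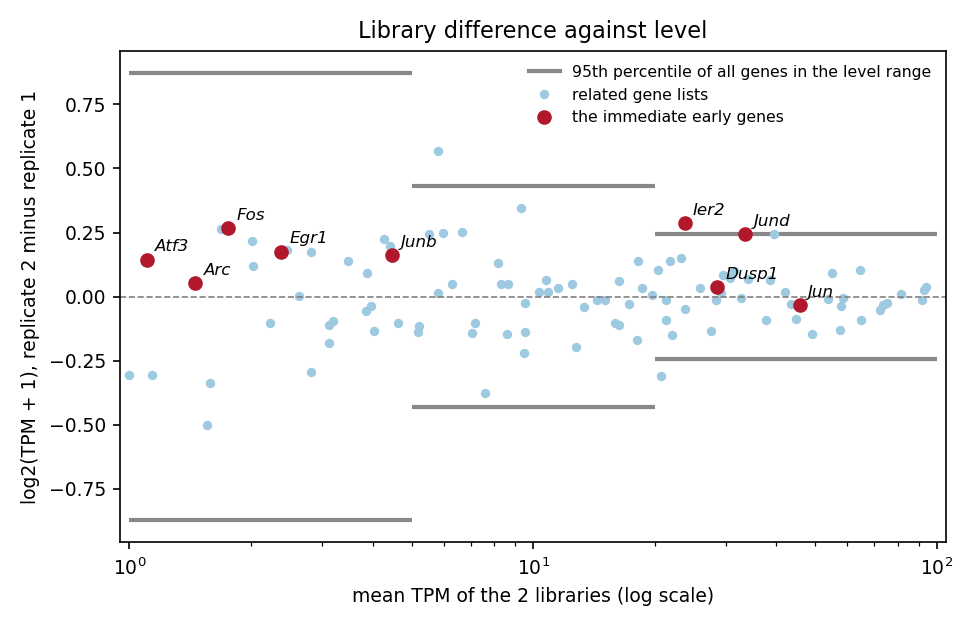
Difference in log2(TPM + 1), replicate 2 minus replicate 1, against the mean TPM (log axis), for 9 of the genes (red; Fosb lies outside the axis) and for related gene lists (blue). Grey bars mark the 95th percentile of the absolute difference over all genes of 1 to 5, 5 to 20 and 20 to 100 TPM, and Ier2 lies above the bar of its range and Jund level with it.

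Markers of other cell types also differed between the libraries, and their part in the values of Jund and Ier2 was not tested. The 8 choroid plexus markers, led by the thyroid hormone carrier Ttr (532.5 and 1022 TPM), summed to 662.3 and 1225 TPM in replicates 1 and 2. The exact binomial test called 7 of these 8 higher. The 8 markers of meninges and mesenchyme summed to 910.6 and 721.5 TPM, with 5 of 8 called lower and Col1a1 at 176.3 and 104.2 TPM. Microglial markers summed to 121.6 and 146.8 TPM (4 of 8 called higher), endothelial markers to 179.2 and 185.4 TPM (1 of 8 higher) and erythroid markers to 12555 and 13669 TPM (6 of 8 higher, 1 lower). Progenitor markers summed to 2791 and 3067 TPM (6 of 8 higher, 2 lower) and those of postmitotic neurons to 4121 and 3954 TPM (1 of 8 higher, 4 lower). None of the markers of these 7 groups was at 0. All 8 hindbrain position genes were detected, as was 1 of 8 forebrain genes, Lhx2 (18.6 TPM).

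The libraries held 33080194 and 38756411 estimated counts, of which ERCC spike-ins took 2.31% and 2.54%. The 10 genes took 0.0212% and 0.0230% of the counts of Ensembl genes.

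At the transcript level the 10 genes had 19 rows. Fosb, Ier2, Jun, Junb and Jund had 1 row each, so splice forms of Fosb could not be separated. Dusp1 was shared in the same way in both libraries. Its coding transcript Dusp1-202 carried 85.2% and 85.1% of the TPM, and the retained intron forms Dusp1-203 and Dusp1-204 carried 5.07% and 4.47%, and 9.72% and 10.4%. Egr1 was equally stable, with 91.7% and 91.4% on the coding Egr1-202 and 8.28% and 8.62% on the coding Egr1-201.

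The division of Fos, Atf3 and Arc differed more between the libraries. Fos-201, the coding transcript, carried 92.6% of the Fos TPM in replicate 1 and 75.6% in replicate 2, with the rest on the processed transcript Fos-202. By the deposited posterior mean the shares of Fos-201 were 66.5% and 64.5%. Fos-202 rested on 1.22 and 6.37 estimated counts and is 631 bases long, against 2108 for Fos-201. Beside this, the Fos TPM was 34.0% higher in replicate 2, while the scaled count ratio was 1.18. Atf3-201 carried 100% and 78.7%, or 59.6% and 48.5% by the posterior mean, and Atf3-203 0% and 18.7%. Arc divided into 49.8% on Arc-201 and 50.2% on Arc-202 in replicate 1, and was placed on Arc-201 alone in replicate 2. These 2 Arc transcripts are 3055 and 3054 bases long, and the division between them is uncertain.

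**Figure D4:**
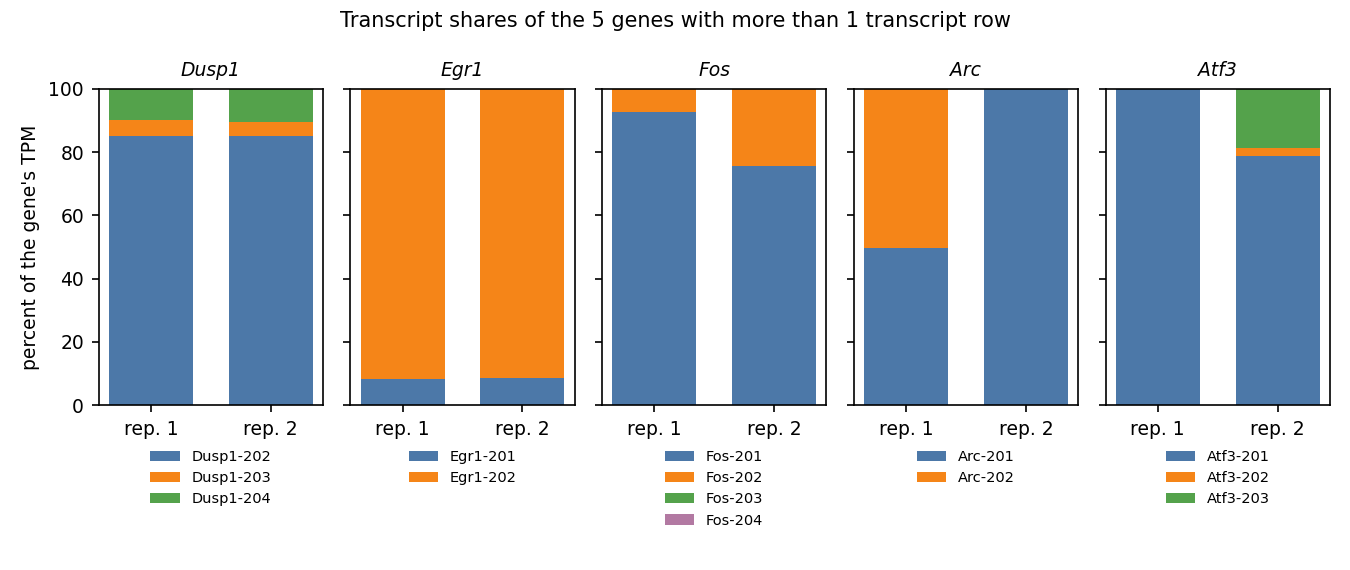
Percent of each gene's TPM assigned to each of its transcripts in replicates 1 and 2, for the 5 genes with more than 1 transcript row. Dusp1 and Egr1 are divided alike in both libraries, while Arc-201 goes from 49.8% to 100% and Fos-201 from 92.6% to 75.6%.

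Gene structure and 3′ UTR letters were also counted, without a test. Jun, Junb, Jund and Ier2 have a single-exon main transcript, 4 of the 10, against 418 of 13290 detected protein-coding genes (3.145%). The pentamer ATTTA, the core of AU-rich elements, was counted in the 3′ UTR of the main coding transcript in GENCODE M21. Dusp1 had 4 in 690 bases (5.80 per kb), Fos 4 in 815 (4.91 per kb) and Junb 2 in 485 (4.12 per kb). Jun followed with 3.24 per kb, Atf3 with 2.53, Jund with 1.88, Egr1 with 1.68 and Fosb with 0.466. Arc and Ier2 had none, in 1668 and 755 bases. The median was 2.20 per kb over the 10 genes and 1.34 per kb over 12310 detected coding genes, and 7 of the 10 lay above the latter. The longer form TATTTAT was present in 6 of the 10 and in 29.4% of the detected genes.

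Other genes of the response were read from lists, by the same exact binomial test over all genes, which called 12.6% of those tested. Of 17 other immediate early transcription factors, 10 were detected, and of the 15 tested 1 was called higher in replicate 2 and 1 lower. The highest were the growth regulator Myc (37.7 ± 1.71 TPM), Klf6 (27.6 ± 1.88 TPM) and Klf10 (23.8 ± 0.573 TPM, SD, n = 2). The activity-dependent Egr4 was lowest, with 0 and 2 counts. The gene called higher was Csrnp1, which rested on 22 and 57 counts (0.38 and 0.84 TPM), and the gene called lower was Klf6 (28.95 and 26.29 TPM). Their adjusted p-values by the exact test were 0.0122 and 0.0325.

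Of 22 other immediate early effectors, 21 were detected, and of 21 tested 3 were called higher and 3 lower. Rgs2, a brake on G protein signalling, had 107 ± 1.81 TPM, the kinase Plk2 102 ± 10.1 TPM and Gadd45g, a growth arrest gene, 93.0 ± 1.202 TPM (SD, n = 2). Ptgs2, the inducible cyclooxygenase, was lowest, at 0.18 and 0.05 TPM. Ier5, a relative of Ier2, had the greatest called difference of the list, at 4.48 and 7.13 TPM from 294 and 553 counts, with intervals that did not overlap. Its log2 count ratio was 0.69 and its adjusted p 1.1e-09 by the exact binomial test, and it was also called by the negative binomial test (adjusted p = 0.00339). The mRNA decay factor Zfp36l1 (36.03 and 42.83 TPM) and Btg1 were the other genes called higher, and Plk2 (109.5 and 95.22 TPM), Btg2 (51.64 and 46.57 TPM) and Arl4d (8.72 and 6.49 TPM) those called lower. The median difference of this list was −0.03 on the log2(TPM + 1) scale.

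The MAP kinase phosphatases related to Dusp1 were 9 of 10 detected, and 1 of 10, Dusp14 (8.11 and 10.58 TPM), was called higher. Dusp8 (72.2 ± 1.82 TPM) and Dusp4 (64.7 ± 2.93 TPM, SD, n = 2) exceeded Dusp1, Dusp6 had 21.4 ± 0.134 TPM, and Dusp9 was lowest, at 1.00 and 0.92 TPM. All 22 upstream kinases and factors were detected and none was called in either direction. Map2k2, a kinase of the ERK cascade, had 182 ± 2.15 TPM, and Mapk3 75.2 ± 0.912 TPM (SD, n = 2). Srf, the factor of the serum response element, was lowest, at 2.35 and 2.12 TPM. Of 13 other bZIP partners, 9 were detected and 1 of 12, Atf7, was called lower (16.97 and 15.64 TPM). Atf2, a partner of Jun, led them with 92.0 ± 0.530 TPM, followed by Mafg (23.3 ± 1.78 TPM) and Ddit3 (20.4 ± 1.10 TPM), which the integrated stress response list shares, and Batf2 was listed at 0.

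The 4 lists of other stress programmes had median levels of 8.75 to 43.98 TPM, against 3.425 TPM for the 10 genes. The other immediate early transcription factors had a lower median still, 2.025 TPM. The remaining lists ran from 7.05 TPM for the MAP kinase phosphatases to 18.1 TPM for the upstream kinases and factors. For the integrated stress response, 8 of 10 genes were detected and 1 of 9, Sesn2 (5.39 and 6.58 TPM), was called higher. Atf4, its central factor, had 93.9 ± 1.74 TPM, the amino acid enzyme Asns 57.9 ± 1.02 TPM and Ddit4 55.1 ± 2.50 TPM, while Gdf15 had 3 counts in each library. In the heat shock list 9 of 10 were detected and 3 of 10 were called higher, Hspa8 (2249 and 2306 TPM), Hspa5 (355.3 and 370.3 TPM) and Hsph1 (62.03 and 66.64 TPM). Their scaled count ratios were small, at 1.05, 1.07 and 1.09, and Hspa8 rested on 71269 and 86747 counts. The deposited intervals of Hspa8 and Hspa5 overlapped, and the negative binomial test called none of the 3. Hsp90aa1 had 1165 ± 24.5 TPM (SD, n = 2). The stress-inducible Hspa1a and Hspa1b were at 3.27 and 3.70 TPM, and at 0.27 and 0.21 TPM, and as near-identical copies they are uncertain.

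Among hypoxia genes 10 of 10 were detected and 1, the glycolytic enzyme Ldha (423.0 and 433.1 TPM), was called higher. Pgk1 followed with 203 ± 4.09 TPM and the glucose transporter Slc2a1 with 81.6 ± 0.431 TPM, and Vegfa was lowest, at 2.24 and 2.68 TPM. All 10 p53 response genes were detected, with 2 called higher, Bax (189.2 and 201.0 TPM) and Trp53inp1 (20.65 and 22.86 TPM), and 1 lower, Plk2, which also stands in the effector list. The cell cycle inhibitor Cdkn1a had 53.8 ± 0.297 TPM, and Pmaip1 was lowest, at 1.79 and 2.24 TPM. The median differences of the 9 lists ran from −0.03 to 0.06 on the log2(TPM + 1) scale. That of the 9 genes whose mean reached 1 TPM was higher, at 0.16. Medians of the cell type marker groups ran more widely, from −0.22 for meninges and mesenchyme to 0.91 for choroid plexus. Junb, Egr1, Fos, Arc and Atf3 also lie at 1 to 5 TPM, where the median absolute difference of all genes was 0.169.

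**Figure D5:**
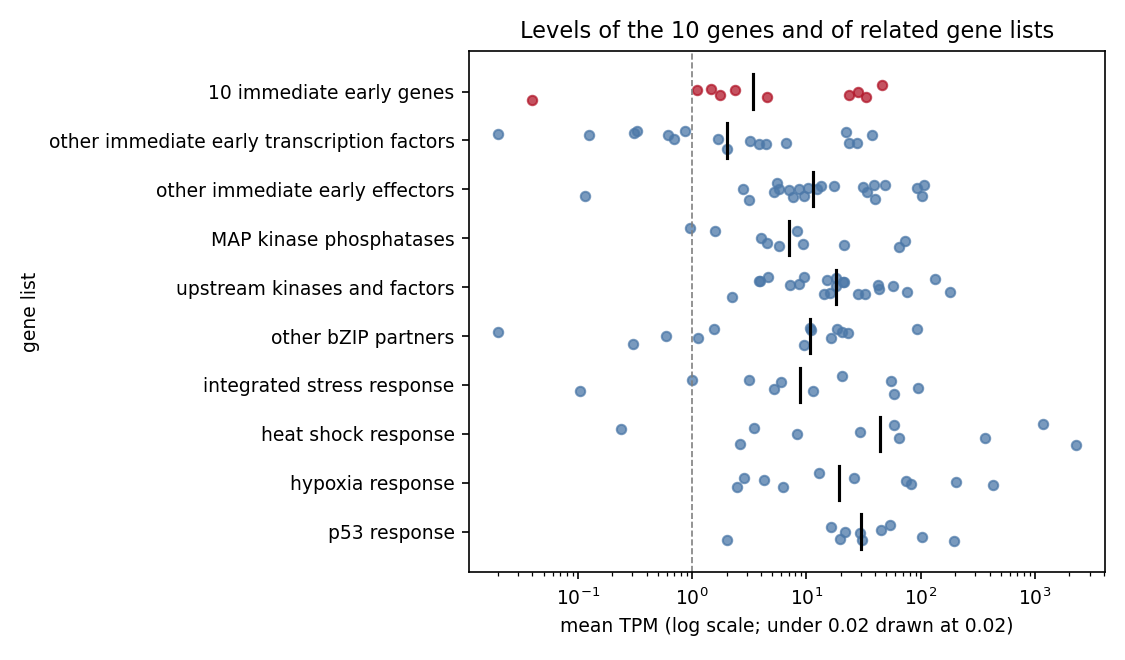
Mean TPM (log axis) of the 10 genes (red) and of the genes of 9 related lists (blue), with the median of each list as a black line and the detection limit of 1 TPM dashed. The median of the 10 genes is 3.425 TPM, and the heat shock genes Hspa8 and Hsp90aa1, at 2278 and 1165 TPM, lie farthest to the right.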

How the data were processed

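Total RNA of 2 hindbrain libraries was quantified per gene and per transcript. The authors deposited expected counts (estimated, not whole), TPM, FPKM, posterior means, intervals of TPM and FPKM, and the percent of a gene's TPM on each transcript, per the file headers. The assembly was mm10 and the annotation GENCODE M4, per the deposited notes. For aligner, counting tool and strandedness, none is given in the sources used here. Deposited TPM values are relative to all rows, spike-ins (5.50% and 5.99% of TPM) included.

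Symbols and positions, from GENCODE M21 (GRCm38, which is mm10), were matched for 42462 of 43346 Ensembl genes. Older list symbols Ctgf, Cyr61, Mkl1 and Mkl2 were matched as Ccn2, Ccn1, Mrtfa and Mrtfb. Promoters came from RefSeq.

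Expected counts were rounded and scaled with TMM (edgeR 4.0.16, R 4.3.3), since 1 group allows no quasi-likelihood test. Levels were compared as log2(TPM + 1), a scale that understates differences of low genes. A two-sided exact binomial test (SciPy 1.17.1) covered all Ensembl genes with 10 or more counts in the pair. Alternatives were a negative binomial test with the common dispersion, DESeq2 1.42.0 size factors, other scales, pseudocounts and detection limits. Others, added after the data were seen, concern Jund, at its shorter length (alone and in the family sums) and summed with Gm11175. The exact intervals of count ratios cover counting error only, and PCR copies of 1 molecule count as separate reads. The deposited intervals are the authors' own and each describe 1 library, without the spread between libraries.

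All 10 genes are named. Of each list the 3 highest by mean TPM, the lowest and any gene called with intervals apart and a 1.5-fold difference in TPM + 1 are named. A list gene that this rule names is not reported here. Other called list genes were named after their values were seen, as was Hspa1a. The 10 genes and the lists were chosen with earlier results of these data known.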

Additional observations from a re-analysis of the deposited data

How the results depend on the processing

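No paired analysis was possible because both libraries belong to 1 group. At a limit of 5 TPM 4 of the 10 genes counted as detected, at 0.5 TPM or by posterior mean 9, and by FPKM 6. A lower interval bound above 0 held for all 10, but that setting cannot tell detected genes from undetected ones. Batf2, with 0 counts in both libraries, had lower bounds of 0.0871 and 0.0776 TPM. Leaving out either library gave 9. Jund and Ier2 remained called with DESeq2 size factors, total counts, ERCC scaling and a count minimum of 50 or none, while the negative binomial test called 0 of the genes here (2 at an unadjusted p below 0.05) and 382 genes in all, against 2472. ERCC scaling added Jun, as lower, and turned the split of calls over all genes from 1391 higher and 1081 lower to 556 higher and 7390 lower. The ratios of single genes stayed within their counting intervals in 47 of 51 alternatives. The exceptions were Jun (−0.15), Dusp1 (−0.08), Ier2 (0.17) and Jund (0.12), all under ERCC scaling. Part of this agreement was fixed in advance. The alternative of TMM-scaled counts uses the same counts and scale as the intervals, and low genes have wide intervals (Fosb −3.41 to 1.93). The log2 ratio of Jun family to Fos family was 4.82 as reported and 4.62 by posterior mean TPM. It was 5.23 from counts not divided by length and 5.56 with Fos and Fosb alone. With Jund at its shorter length it was up to 5.21, the counts of Gm11175 left out. In single libraries it ran from 4.75 to 4.89. For the shift by posterior mean TPM the cause was not tested. Depth limits Fosb (7 counts in all), Atf3, Fos and Arc most.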
